A study of Mus musculus with 8 samples.

Results

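In the glioma library of this mouse single-cell RNA sequencing series, 215 of the 10963 droplet barcodes that passed the quality limits carried transcripts of Xcr1 or Clec9a, the genes by which type 1 conventional dendritic cells (cDC1) are commonly recognised. The 215 members were chosen from the deposited counts. Each had at least 1000 unique molecular identifiers (UMIs, the count of captured RNA molecules), at least 500 genes, at most 10% mitochondrial UMIs and at least 2 UMIs of Xcr1 and Clec9a together. None had a UMI of Ccr7 or of Cd3d, Cd3e or Cd3g. They made up 1.96% of the barcodes (exact 95% interval 1.71% to 2.24%). In the control library the same rule found 7 of 13457 barcodes, a share of 0.052% (0.0209% to 0.107%). All intervals here cover counting error only.

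The study used CD45+ leukocytes sorted with magnetic beads from the tumours of glioma-bearing mice and from the brains of normal mice, with 4 samples listed for each. Droplet libraries were made with a 3' kit of either of 2 versions and sequenced on an Illumina instrument. The labels give no strain, age, genotype or tumour model, and no file ties a barcode to a mouse. Each group was therefore 1 pooled library, so no difference below has a replicate check, and no p-value is given.

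cDC1 depend on the transcription factors Irf8 and Batf3 and on the growth factor receptor Flt3. They are known for taking up dead cells and presenting the antigens of those cells on MHC class I to CD8 T cells, a process called cross-presentation. Clec9a is the receptor with which they bind actin exposed on dying cells, and Xcr1 is the receptor for Xcl1, a chemokine made by NK and CD8 T cells. In GRCm38, Xcr1 lies on chromosome 9 at 123852315 to 123862029 (minus strand) and Clec9a on chromosome 6 at 129408862 to 129424763 (plus strand). Irf8 lies on chromosome 8 at 120736358 to 120756694 and Batf3 on chromosome 1 at 191097847 to 191108945, both on the plus strand.

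The barcodes that met the rule were not of 1 kind. Both genes were detected in 107, Xcr1 alone in 12 and Clec9a alone in 96, and 62 of these last had exactly 2 Clec9a UMIs. The sum of both genes was exactly 2 in 79 members, exactly 3 in 28, 4 to 9 in 60 and at least 10 in 48, with a highest value of 36. Just outside the rule, 391 barcodes had exactly 1 UMI. As a description of the threshold, an Xcr1 UMI was present in 12.3% of those 391 barcodes, 21.5% of the members at 2, 25% of those at 3, 78.3% of those at 4 to 9 and 100% of those at 10 or more. At least 20 UMIs of C1qa, C1qb and C1qc, which encode the complement component C1q made by macrophages, were present in 72.4%, 72.2%, 60.7%, 18.3% and 6.25% of the same bins.

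The levels of Irf8, Flt3 and Lyz2 moved along these bins. Levels are given as UMIs per 1000000 UMIs of the summed barcodes (CPM). Irf8 stood at 304 CPM just outside the rule, at 420 in members with 2 UMIs, at 469 with 3, at 1096 with 4 to 9 and at 1516 with 10 or more. Flt3 stood at 5.17, 15.1, 22.1, 92.0 and 100.3 CPM in the same bins. Lyz2, the lysozyme gene of macrophages, monocytes and neutrophils, went the other way, at 4531, 3838, 3103, 1384 and 917 CPM. Median UMIs per barcode differed less, between 17894 and 24695.5. The barcodes at 2 and 3 UMIs thus stood nearer to those just outside the rule than to those at 4 or more in Irf8, Flt3 and Lyz2. Apoe, a macrophage gene, did not follow in full, at 3472, 3333, 1605, 750 and 1043 CPM in the same bins. At 3 UMIs it stood nearer to the barcodes at 4 or more.

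**Figure D1:**
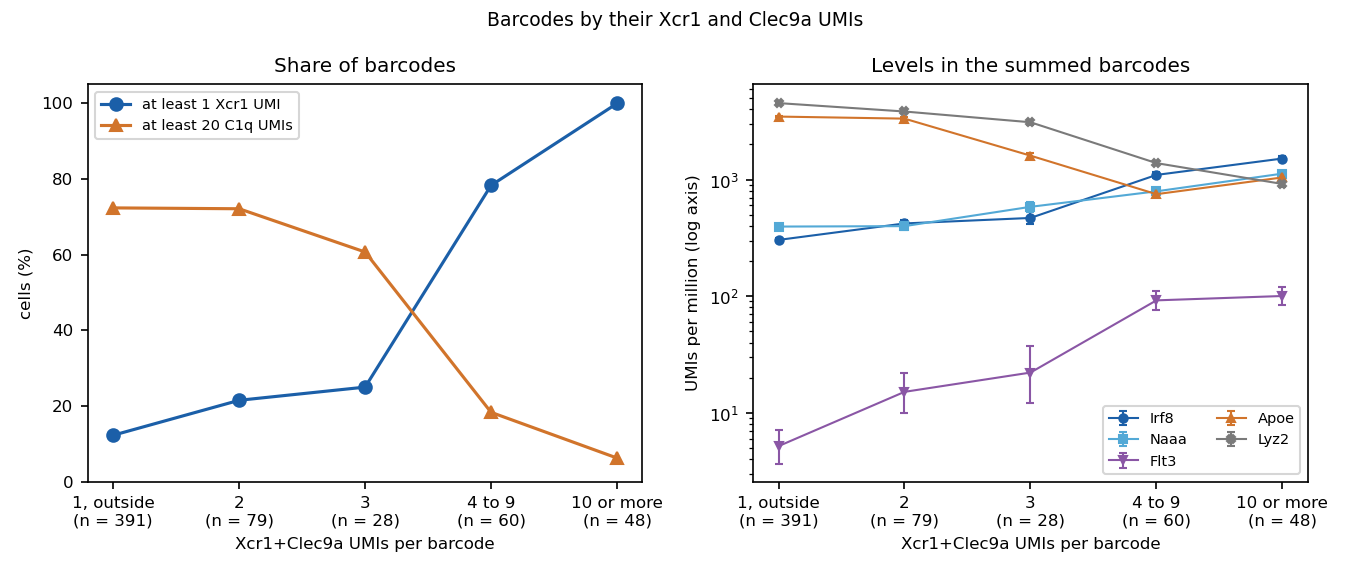
Barcodes of the glioma library by their number of Xcr1 and Clec9a UMIs, with exactly 1 UMI lying outside the rule. The left panel gives the percentage with an Xcr1 UMI and with at least 20 C1q UMIs; the right panel gives the level of 5 genes in the summed barcodes on a log axis, with 95% counting intervals. From 2 UMIs to 10 or more, the share with 20 C1q UMIs falls to 6.25% and Irf8 reaches 1516 CPM.

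C1q divided the members with few in between. Under 10 UMIs of the 3 C1q genes were found in 122 members, 10 to 19 in 5, 20 to 49 in 7 and at least 50 in 81. With a limit of 20 UMIs, chosen after these values were seen, the members fell into 3 sets. There were 99 with an Xcr1 UMI and low C1q, 28 with Clec9a only and low C1q, and 88 that carried C1q. Of the 96 members with Clec9a only, 70.8% carried C1q, against 16.8% of the 119 with Xcr1. The median number of C1q UMIs was 2 in the Xcr1 set, 1 in the Clec9a-only set and 181 in the C1q-bearing set, against 91 in the macrophages of the same library described below.

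**Figure D2:**
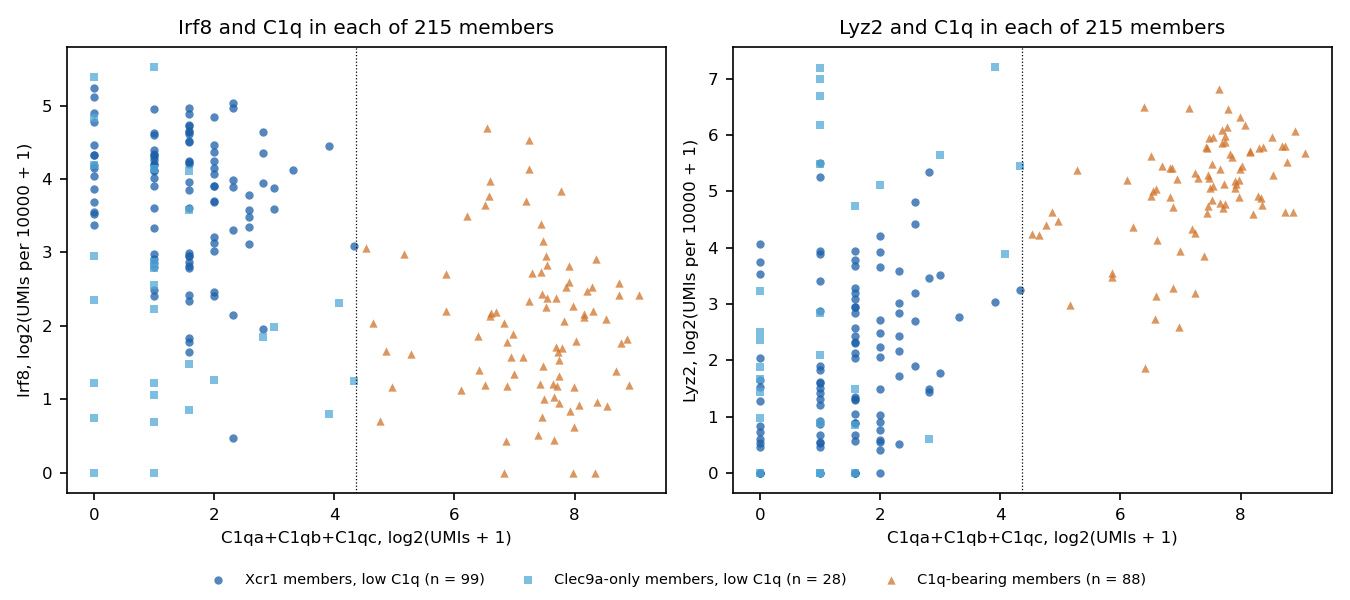
Each point is 1 of the 215 members. The horizontal axes give log2 of the C1q UMIs plus 1, with the limit of 20 UMIs as a dotted line; the vertical axes give Irf8 (left) and Lyz2 (right) as log2 of UMIs per 10000 plus 1. The C1q-bearing members lie low in Irf8, with a median of 2.92 UMIs per 10000, and high in Lyz2, with a median of 35.6.

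Depth and doublet scores were read beside these sets. Median UMIs per barcode were 21951 in the Xcr1 set, 15575.5 in the Clec9a-only set and 25103.5 in the C1q-bearing set, against 11433 over all glioma barcodes that passed. The Scrublet doublet score was among the library's highest, a mark set at 8.77% of all barcodes, in 5 of the 99, 1 of the 28 and 11 of the 88. Among the C1q-bearing members, the 20 with Xcr1 had a median of 35229 UMIs and 7 of them had such a score. The 68 without Xcr1 had a median of 23833 UMIs and 4 had such a score. Whether C1q-bearing barcodes held more than 1 cell was not tested. Of the 215 barcodes, 2 also had at least 300 UMIs in the control library, and 0 had at least 1000.

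The members were set against 3 classes of the same library, each named by the genes that chose it. Plet1/Ccl17 cells were 637 barcodes with at least 2 UMIs of Plet1 and Ccl17, and none of Xcr1, Clec9a, Ccr7 or Cd3. Ccr7/Fscn1 cells were 92 barcodes with Ccr7, at least 2 UMIs of Fscn1 and none of Cd3. Dendritic cells switch on Ccr7 and Fscn1 when they mature and migrate. Xcr1 and Clec9a were not limited in this class, and 2 and 8 of the 92 held a UMI of them. C1q macrophages were 4409 barcodes with at least 5 C1q UMIs and none of Xcr1, Clec9a, Plet1, Ccl17, Ccr7 or Cd3. Median UMIs were 22193 in the members, 16760 in Plet1/Ccl17 cells, 10878 in Ccr7/Fscn1 cells and 13591 in C1q macrophages. In the same order, 7.91%, 12.2%, 18.5% and 6.74% of the barcodes were among the highest doublet scores. The Plet1/Ccl17 class was itself mixed. At least 20 C1q UMIs were found in 241 of the 637, and at least 2 UMIs of the keratins Krt8 and Krt18 in 50. In the members, 0 of 215 had 2 keratin UMIs.

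The 99 Xcr1 members with low C1q carried cDC1 genes that the rule had not used at high levels. Irf8 stood at 1407 CPM in them (1358 to 1458), at 712 in the Clec9a-only set and at 425 in the C1q-bearing set, against 189 in Plet1/Ccl17 cells, 794 in Ccr7/Fscn1 cells and 299 in C1q macrophages. Cell by cell, Irf8 ranged between 0.384 and 36.9 UMIs per 10000 in the 99, with a median of 14.5 and a UMI in every cell. The median was 3.32 in the Clec9a-only set and 2.92 in the C1q-bearing set, against 1.20 in Plet1/Ccl17 cells, 9.90 in Ccr7/Fscn1 cells and 2.11 in C1q macrophages. The ranges overlapped in all of these classes.

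Batf3, the partner that keeps Irf8 active in the cDC1 lineage, stood at 135 CPM in the 99 cells (121 to 152), against 24.0 in Plet1/Ccl17 cells, 180 in Ccr7/Fscn1 cells and 18.3 in C1q macrophages. Naaa, a lysosomal enzyme that hydrolyses fatty acid ethanolamides and a known cDC1 marker, stood at 1011 CPM, against 236, 44.9 and 240 in the same 3 classes. Every one of the 99 held a Naaa UMI, with 2.07 to 29.4 UMIs per 10000. Wdfy4, which mouse cDC1 need for cross-presentation of cell-associated antigens, stood at 418 CPM in the 99, against 76.1, 9.52 and 30.6. These genes were thus highest in the Xcr1 set, except Batf3, which was higher in Ccr7/Fscn1 cells.

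Surface genes of cDC1 followed. Itgae, which encodes the integrin CD103, stood at 335 CPM in the 99 Xcr1 cells, against 66.8 in Plet1/Ccl17 cells, 5.44 in Ccr7/Fscn1 cells and 0.794 in C1q macrophages. Cadm1, an adhesion molecule that binds Crtam on activated T cells, stood at 123 CPM, against 20.2, 17.0 and 38.6. Flt3 stood at 107 CPM in the 99, against 13.3, 76.9 and 0.540, and 88 of the 99 held a UMI of it. Zbtb46, a transcription factor of conventional dendritic cells, stood at 22.6 CPM, against 9.05, 35.4 and 0.175. Flt3 and Zbtb46 were near 0 in the macrophages, and Zbtb46 was highest in Ccr7/Fscn1 cells.

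Since the members were sequenced more deeply, each barcode was thinned to 2000 UMIs and cells with a UMI were counted, with T cells and neutrophils, which are not known for Wdfy4 or Flt3, as a background. Irf8 was then found in 88.9% of the 99 Xcr1 cells, against 28.5% of Plet1/Ccl17 cells, 74.7% of Ccr7/Fscn1 cells, 39.9% of C1q macrophages, 21.6% of T cells and 22.3% of neutrophils. Unthinned, the shares were 100%, against 73.6%, 94.6%, 82.5%, 48.6% and 34.7%. Wdfy4 was found after thinning in 65.7% of the 99 cells, against 14.9%, 2.20% and 5.52% of the 3 classes, and 2.18% of T cells and 4.46% of neutrophils. Flt3 was found in 25.3%, against 3.32%, 19.8% and 0.165%, and 0.472% of T cells and 1.24% of neutrophils. Thinning left out 5 Plet1/Ccl17 cells, 1 Ccr7/Fscn1 cell, 169 macrophages, 22 T cells and 80 neutrophils, but none of the members. Median UMIs before thinning were 8892.5 in T cells and 2975.5 in neutrophils.

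**Figure D3:**
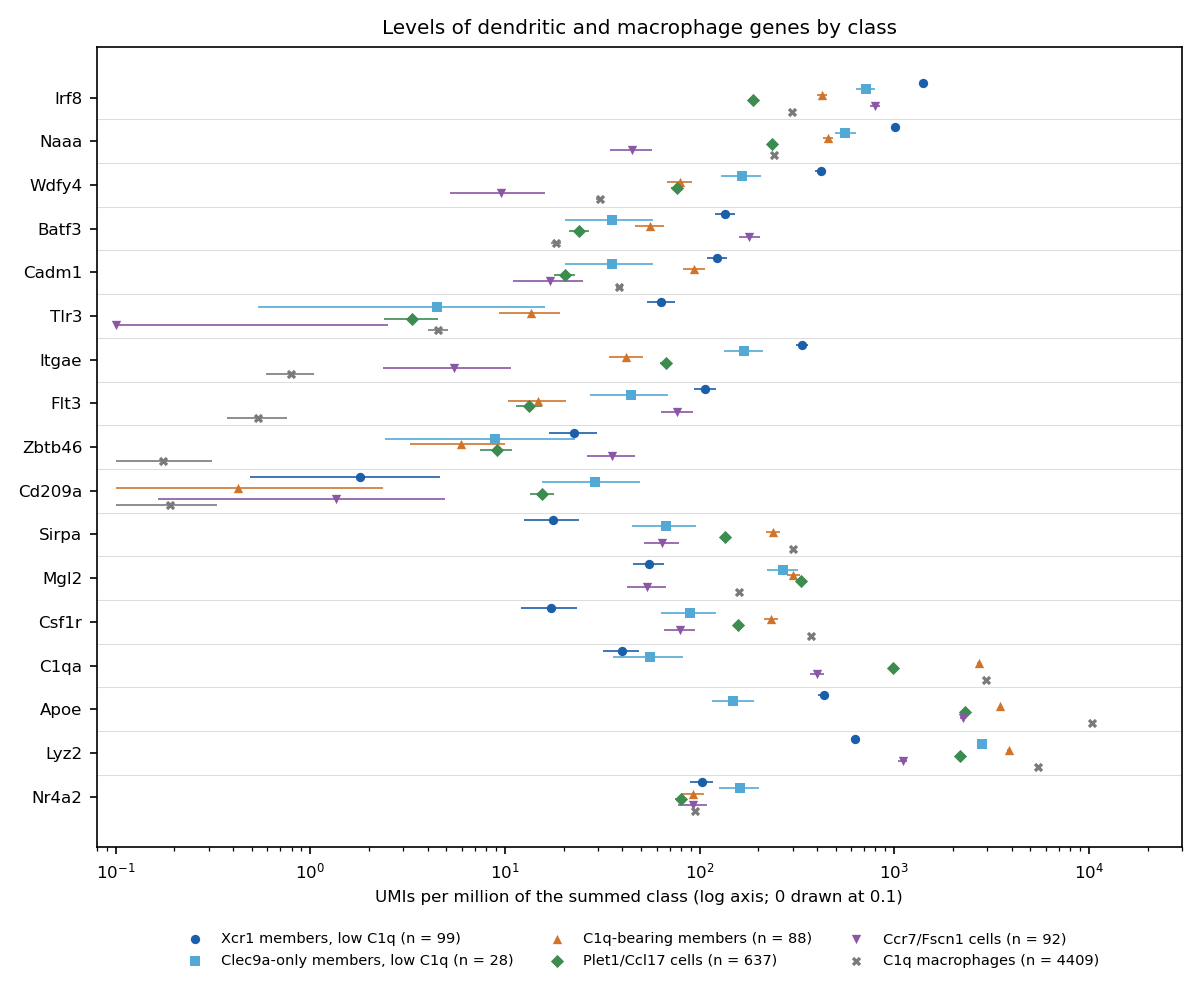
Level of 17 genes in the 3 sets of members (blue circles, light blue squares and orange triangles) and in the 3 other classes of the glioma library, as UMIs per 1000000 of the summed class on a log axis, with 95% counting intervals and values of 0 drawn at 0.1. Irf8 stands at 1407 CPM in the Xcr1 members and at 425 CPM in the C1q-bearing members, and Nr4a2 lies between 79.8 and 160 CPM in all 6 classes.

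To set the Xcr1 cells against other dendritic cells with fewer macrophage and keratin transcripts, they were compared with 347 Plet1/Ccl17 cells that had under 20 C1q UMIs and under 2 keratin UMIs, limits that were also chosen after the values were seen. Transcripts of other cell types were not absent from either class. Over the macrophage list the level was 711 CPM in the 99 Xcr1 cells, against 1125 in the 347 cells, over the epithelial or tumour list 21.7 against 100.1, and over the neutrophil list 59.6 against 707. Their part in the ratios below was not tested. Ratios are log2 of the CPM in the first class over that in the second, with 0.5 UMI added to each sum, over genes with at least 20 UMIs in both sums together. A gene is counted as higher or lower past 2-fold. Of 9352 genes, 531 were higher in the 99 Xcr1 cells (5.68%) and 985 were lower (10.5%), with a median ratio of -0.07. Of the 22 measured cDC1 marker genes outside the rule, 21 were higher and 0 lower, with a median of 2.41. Hepacam2 alone fell short of 2-fold, at 0.94. The 99 cells were chosen with Xcr1 and the 347 with no Xcr1 or Clec9a, which bears on this list. The part of that choice was not tested.

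Among these, Irf8 was 3.03 higher on the log2 scale (2.92 to 3.14), Batf3 2.29 higher and Naaa 1.95 higher. Ppt1, a lysosomal thioesterase of cDC1, was 3.32 higher, with 756 CPM in the 99 Xcr1 cells and 75.4 CPM in the 347 cells. Cadm1 was 4.79 higher (4.18 to 5.54), with 123 against 4.35 CPM. Tlr3, the endosomal receptor for double-stranded RNA, was 4.14 higher, with 63.6 against 3.52 CPM. Tlr11, which in mice senses profilin of protozoa, was 2.75 higher. The genes with the largest ratios of all were Ttc39a, Plpp1, Gcsam, Ffar4, Asap2, Rtl8a, Cadm1, Agpat3, Rab7b and Tlr3, of which Plpp1, Gcsam, Ffar4, Cadm1, Rab7b and Tlr3 were on the marker list. The genes furthest below were Mcpt1, Mcpt2, Ifit3, Tm4sf1, Stfa1, Gapt, Clec2i, Retnlg, Cyr61 and Tmem176a. Mcpt1 and Mcpt2, mast cell proteases, had 0 UMIs in the 99 Xcr1 cells, against 265 and 202 in the 347 cells. Retnlg, a neutrophil gene, had 8 UMIs in the 99, against 505 in the 347.

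Genes of type 2 conventional dendritic cells (cDC2) stood on the other side. Of 16 measured cDC2 genes, 0 were higher and 15 lower in the 99 Xcr1 cells than in the 347 cells, with a median of -2.87. Clec10a fell short of 2-fold, at -0.94. The 347 cells were chosen by Plet1 and Ccl17, genes of the cDC2 list that were left out of the 16. That choice bears on the list, and its part was not tested. Sirpa, which encodes the surface protein used to tell cDC2 from cDC1, stood at 17.6 CPM in the Xcr1 cells and 107 CPM in the 347 cells, a ratio of -2.59 (-3.11 to -2.13). Mgl2 stood at 54.6 and 475 CPM, a ratio of -3.12. S100a4 stood at 49.2 and 916 CPM, a ratio of -4.21. Irf4, a transcription factor of cDC2, had a ratio of -2.81. Plet1 and Ccl17, which chose the 347 cells, were also abundant in the Xcr1 cells: Plet1 stood at 925 CPM in the 99, against 1010 in the 347, and Ccl17 at 817, against 913. Of the 99, 93 would have met the Plet1/Ccl17 limit of 2 UMIs.

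**Figure D4:**
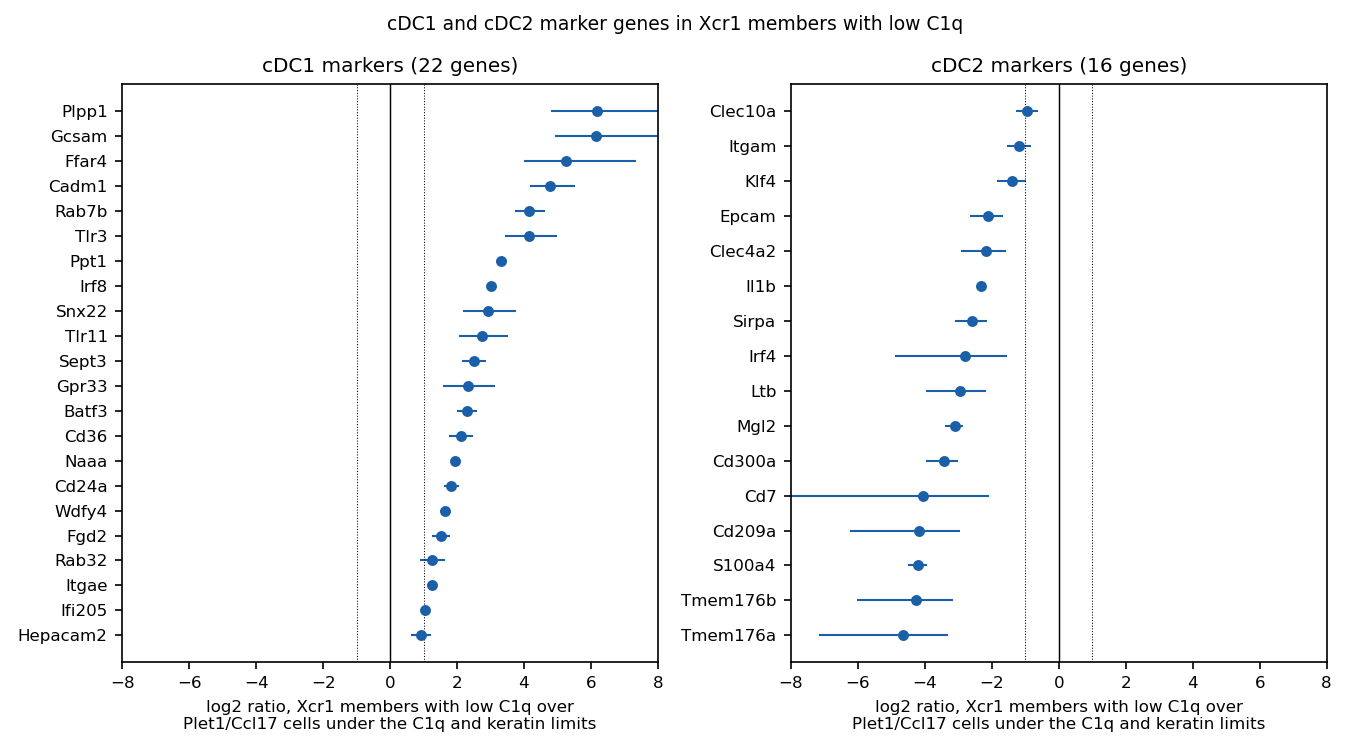
Log2 ratio, 99 Xcr1 members with low C1q over 347 Plet1/Ccl17 cells under the C1q and keratin limits, for 22 cDC1 genes (left) and 16 cDC2 genes (right), with 95% counting intervals, some of which run past the axis; dotted lines mark 2-fold. All cDC1 genes lie above 0, from Hepacam2 at 0.94 to Plpp1 at 6.18, and all cDC2 genes lie below 0, from Clec10a at -0.94 to Tmem176a at -4.65. The genes that chose both classes bear on these lists.

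Transcription factors that direct dendritic cell fate divided between both sides of the same comparison. Of 24 measured, 3 were higher and 6 lower in the Xcr1 cells than in the 347 cells, with a median of -0.14. Over all genes 5.68% were higher and 10.5% lower. Those higher were Irf8, Batf3 and Mycl, a Myc family member that cDC1 need for their function, which was 2.98 higher. Id2, a repressor of the plasmacytoid fate, was 0.74 higher, at 614 against 367 CPM. Zeb2, which in mice favours plasmacytoid cells and cDC2 over cDC1, was lower, at 37.9 against 141 CPM, a ratio of -1.89. Zbtb46 had a ratio of 0.20 whose interval spanned 0 (-0.33 to 0.71). Of 11 pan-dendritic genes, 3 were higher and 0 lower, with a median of 0.11, and Flt3 was 1.86 higher (1.56 to 2.18). Of 8 measured macrophage genes, 0 were higher and 3 lower, with a median of -0.86, although the limit on C1q bears on this list.

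The 28 members with Clec9a only and low C1q were few and unlike each other. Irf8 was present in 26 of the 28, with 0 to 44.9 UMIs per 10000 and a median of 3.32. Naaa was present in 24, Wdfy4 in 19, Flt3 in 11 and Plet1 in 22. Lyz2 ran between 0 and 146 UMIs per 10000 with a median of 4.40, and its level in the summed set was 2834 CPM, against 631 in the Xcr1 set. A single barcode held 17 Siglech, 28 Ly6d, 16 Klk1 and 24 Cox6a2 UMIs, genes of plasmacytoid dendritic cells, and a sum of 85 over these 4 genes. No other barcode of the 28 had 2 UMIs of these genes. Mgl2 was present in 16 of the 28 and Cd209a in 2. No gene-wide count is given for this set, because of its size.

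The 88 C1q-bearing members carried macrophage genes above the level of the Xcr1 set and, in the genes given here, below that of macrophages. C1qa, which helped to choose the set, stood at 2736 CPM in them, against 39.7 in the Xcr1 set and 2956 in C1q macrophages. Csf1r, the growth factor receptor of macrophages, stood at 232 CPM, against 17.2 and 373. Apoe stood at 3508 CPM, against 433 and 10388. Over the 12 macrophage genes together the level was 12350 CPM in the C1q-bearing members, against 711 in the Xcr1 set and 21096 in C1q macrophages, and each of the 12 was detected in each class.

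Dendritic genes were present in the C1q-bearing members at lower levels than in the Xcr1 set. The ratio, Xcr1 set over C1q-bearing set, was 1.73 for Irf8, 2.83 for Flt3, 2.65 for Cst3, the cystatin C gene abundant in conventional dendritic cells, and 2.99 for Itgae. Against C1q macrophages, the C1q-bearing members were higher in Irf8 by 0.51 on the log2 scale (0.41 to 0.60), in Naaa by 0.94 and in Flt3 by 4.78. Most of that Flt3 came from the 20 with Xcr1: the 68 without Xcr1 held 3 of the 35 Flt3 UMIs and stood at 1.74 CPM, against 0.540 in C1q macrophages. Irf8 stood at 360 CPM in those 68, against 299 in the macrophages. Other cDC1 genes stood further above the macrophages in the 68 barcodes, Batf3 at 42.3 against 18.3 CPM, Naaa at 398 against 240 CPM and Cadm1 at 85.7 against 38.6 CPM. Over 11 pan-dendritic genes the level was 3903 CPM in the 68, against 2144 CPM in C1q macrophages. Of the 68, 16 had at least 2 UMIs of Plet1 and Ccl17, whereas the macrophages were chosen with none of either. That choice bears on these comparisons, and its part in them was not tested. The values of these 68 thus stood on both sides of a dendritic label, with Flt3 near 0, and they are described here by the C1q and Clec9a content that chose them.

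Markers of T cells, B cells and neutrophils were low in the members, and those of NK and plasmacytoid dendritic cells were not low throughout. Over 10 T cell genes outside the rule the level was 17.9 CPM, with 2 of them at 0, against 7.66 in Plet1/Ccl17 cells, 8.84 in Ccr7/Fscn1 cells, 10.3 in C1q macrophages and 2286 in T cells. Of these 90 UMIs in the members, 57 were of Cd8a, which was detected in 24 of the 99 Xcr1 cells and 0 of the 88 C1q-bearing members. Over 8 NK genes it was 125 CPM in the members, against 120, 70.7 and 59.7 in the same 3 classes, and 610 of the 629 UMIs were of Klrk1. Over 12 genes of plasmacytoid cells it was 756 CPM in the members, against 846, 522 and 872. Of the measured genes of that list, 5 of 10 were higher than in Plet1/Ccl17 cells, beside 3.2% of all genes. Against Ccr7/Fscn1 cells 6 of 9 were higher, beside 10.1%, and against C1q macrophages 6 of 10, beside 7.19%. In the same order 0, 1 and 0 were lower, beside 9.39%, 12.4% and 10.3%. A single barcode, described above, carried 85 UMIs of 4 genes of this list. The list stood at 350 CPM in the Xcr1 set, 1271 in the Clec9a-only set and 1038 in the C1q-bearing set. In the Xcr1 set against Plet1/Ccl17 cells, 2 of 6 were higher and 2 lower, beside 5.19% and 19.7% of all genes. Over 8 neutrophil genes the level was 43.8 CPM in the members, against 340, 711 and 351 in the 3 classes. Over 8 B and plasma cell genes it was 1.39 CPM, with 4 at 0. Over 8 epithelial or tumour genes it was 17.5 CPM, against 495, 726 and 6.91 in the same 3 classes.

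All 215 members were then set against each class. Plet1/Ccl17 cells and C1q macrophages were chosen with no Xcr1 or Clec9a, which bears on the cDC1 list. The part of that choice was not tested. Against Plet1/Ccl17 cells, 358 of 11175 genes were higher (3.2%) and 1049 lower (9.39%), with a median ratio of -0.06. Of the 22 cDC1 genes, 21 were higher and 0 lower, with a median of 2.09. Gcsam was 6.48 higher, at 32.6 against 0.326 CPM, followed by Ffar4, a fatty acid receptor, at 5.57, Cd8a at 5.33, Ccr9 and Nppc at 4.86 each and Ttc39a at 4.79. Of the 53 Ccr9 UMIs in the members, 25 lay in 1 barcode of the Clec9a-only set. The genes furthest below were Tm4sf1, Lgals7, Wwtr1, S100a16, Krt8, Tcim, Bmp1, Ereg, Il11 and Flnc. Tm4sf1 had 0 UMIs in the members and 2023 in Plet1/Ccl17 cells, at least 276-fold lower with 3 UMIs as the floor per class. Krt8, the keratin that marks 50 of those cells, had a ratio of -8.01. Without keratin-bearing barcodes the number of lower genes was 368.

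Against Ccr7/Fscn1 cells, 975 of 9631 genes were higher (10.1%) and 1192 lower (12.4%), with a median ratio of -0.07. Of the 22 cDC1 genes, 20 were higher and 1 lower, with a median of 3.52, or 3.32 with Tlr3 and Snx22, at 0 UMIs in those cells, set at their bounds. Tlr3 had 175 UMIs in the members and 0 in Ccr7/Fscn1 cells, at least 17.1-fold higher. Batf3 was the gene lower, at 89.0 against 180 CPM, a ratio of -1.02 (-1.24 to -0.79), and Irf8 differed by 0.15 (0.06 to 0.25). Of 22 genes of mature dendritic cells, 0 were higher and 18 lower, with a median of -3.16, although the requirement of Ccr7 at 0 in 1 class and Ccr7 with Fscn1 in the other bears on this list. Ccl22, a chemokine of mature dendritic cells, stood at 36.0 against 839 CPM, Relb had a ratio of -2.86 and Cd200 one of -6.11. Other named genes above were Pianp, Gpr82, Fcrla, Paqr4, Prss30, Itgae, Ccr9 and Nppc. Those below were Tm4sf1, Nudt17, Cd70, Mmp3, Il11, Krt8, Tcim, Krt76, Ptn and Wwtr1, in a class where 6 of 92 barcodes bore keratin.

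Against C1q macrophages, 878 of 12204 genes were higher in the members (7.19%) and 1253 lower (10.3%), with a median ratio of -0.10. Of the 22 cDC1 genes, 19 were higher and 0 lower, with a median of 2.95, and of 11 pan-dendritic genes 9 were higher and 0 lower, with a median of 3.49. Itgae was 7.83 higher, Btla, an inhibitory receptor, 7.57 and Flt3 6.73. The genes with the largest ratios were Nppc, Ffar4, Sept3, Gcsam, Ppp1r14a, Fndc5, Itgae, Snx22, Ttc39a and Btla. Nppc, which encodes C-type natriuretic peptide, had 53 UMIs in the members and 0 in the macrophages. The genes furthest below were Igf1, Hpgd, G0s2, Tm4sf1, Mmp9, Raet1d, Hnmt, Tmem26, Scarf2 and Slco2b1. Of 9 macrophage genes that had not chosen a class, 9 were lower, with a median of -1.58.

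For the 99 Xcr1 cells alone, more genes lay past 2-fold below each class. Against all Plet1/Ccl17 cells, 569 of 10969 genes were higher (5.19%) and 2163 lower (19.7%). Against Ccr7/Fscn1 cells, 656 of 8428 were higher (7.78%) and 1590 lower (18.9%), and against C1q macrophages 1217 of 12140 were higher (10%) and 2716 lower (22.4%). Of the 22 cDC1 genes, 21, 19 and 20 were higher in these comparisons and 0 lower in each, with medians of 2.63, 4.08 and 3.79. The median against Ccr7/Fscn1 cells was 3.97 with genes at 0 set at their bounds. The choice of cells by Xcr1 and Clec9a bears on the cDC1 list. Of the macrophage genes, 12 of 12, 11 of 11 and 9 of 9 were lower, with medians of -2.61, -2.72 and -4.42, although the C1q limit that chose the 99 bears on this list. The medians over all genes were -0.23, -0.26 and -0.25.

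MHC class II genes were higher in the members than in Ccr7/Fscn1 cells and near those of the other dendritic class. Of 10 measured against Ccr7/Fscn1 cells, 10 were higher, beside 10.1% of all genes, with a median of 2.31. H2-Ab1 stood at 9237 CPM in the members and 1811 in Ccr7/Fscn1 cells. Against Plet1/Ccl17 cells 0 of 10 passed 2-fold, with a median of 0.33. Against C1q macrophages 5 of 11 were higher, beside 7.19% of all genes. Genes of class I loading and cross-presentation lay close to all 3 classes, with medians of 0.29, 0.12 and 0.07 against Plet1/Ccl17 cells, Ccr7/Fscn1 cells and C1q macrophages. Of these 30 genes, Wdfy4 was higher than in every class, by 1.63, 4.58 and 2.95, and Rab43, which in mice serves cross-presentation by cDC1, was higher by 1.08, 1.30 and 0.64. Psmb9, an immunoproteasome subunit, was higher by 0.89, 0.38 and 1.22.

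Receptors that sense or take up material were mixed. Of the sensing genes, Tlr3 and Tlr11 were higher in the members than in all 3 classes, Tlr11 by 2.37, 4.06 and 4.22. Against Plet1/Ccl17 cells 3 of 18 sensing genes were higher and 0 lower, beside 3.2% and 9.39% of all genes. Against Ccr7/Fscn1 cells 7 of 17 were higher and 0 lower, beside 10.1% and 12.4%. Against C1q macrophages, 2 of 19 were higher and 6 lower, beside 7.19% and 10.3%. Tlr2, a receptor for bacterial lipoproteins, had a ratio of -2.19 to the macrophages, and Tlr7, for single-stranded RNA, one of -1.60. Of the uptake genes, Cd36, a scavenger receptor linked to uptake of dying cells, was higher by 1.95, 3.68 and 2.15. Ly75, which encodes the endocytic receptor DEC-205, was higher than in Plet1/Ccl17 cells and macrophages, by 1.66 and 4.23, and lower than in Ccr7/Fscn1 cells, with a ratio of -2.97. In the Xcr1 cells against the 347 Plet1/Ccl17 cells, Axl, a receptor for dying cells, had a ratio of -1.98 and Clec4n, a fungal receptor, one of -3.37.

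Chemokine genes lay on both sides. Of 16 against Plet1/Ccl17 cells, 3 were higher and 4 lower, beside 3.2% and 9.39% of all genes. Of 17 against Ccr7/Fscn1 cells, 1 was higher and 5 lower, beside 10.1% and 12.4%. Of 17 against C1q macrophages, 1 was higher and 10 lower, beside 7.19% and 10.3%. Cxcl9, which draws Cxcr3-bearing T cells, stood at 1563 CPM in the members, against 772, 388 and 1091 in the 3 classes. Within the members it was highest in the C1q-bearing set, at 2258 CPM, against 938 in the Xcr1 set, a ratio of -1.27 for the Xcr1 set over the C1q-bearing set. The ratio of Cxcl9 was 1.02 for all members over Plet1/Ccl17 cells and 0.48 for the Xcr1 cells over the 347. Il12b, the p40 subunit of interleukin-12, had 22 UMIs in the members and stood at 4.38 CPM, against 0.0815, 81.6 and 0.636. Of those UMIs, 19 lay in 8 of the 99 Xcr1 cells, and a UMI was found in 1 of the 637 Plet1/Ccl17 cells. Of 24 genes of cytokines and their receptors, Il12b alone was past 2-fold above the 347 cells in the Xcr1 cells. Its ratio was 4.82 (2.72 to 10.75), on these few UMIs. In the same comparison 8 were lower, Il1b among them with a ratio of -2.33. Over all genes 5.68% were higher and 10.5% lower.

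Interferon-stimulated genes were higher in sum in the C1q-bearing members than in the other sets. Over this list the level was 5531 CPM in them, against 2563 in the Xcr1 set and 2874 in the Clec9a-only set. For all 215 members the median over this list was -0.02 against Plet1/Ccl17 cells. Of 28 genes, 2 were higher and 1 lower, beside 3.2% and 9.39% of all genes. In the 99 Xcr1 cells against the 347 Plet1/Ccl17 cells the median was -1.06. There 2 of 28 were higher and 14 lower, beside 5.68% and 10.5% of all genes. Isg15, a ubiquitin-like modifier, stood at 88.5 CPM in the Xcr1 set and 337 in the C1q-bearing set, against 249 in all Plet1/Ccl17 cells. Gbp2, a guanylate-binding protein, stood at 58.7 CPM in the Xcr1 set and 379 in the C1q-bearing set, against 243 in Plet1/Ccl17 cells. Ifit3 had 0 UMIs in the Xcr1 set. The 2 genes higher in the Xcr1 cells were Ifi205, a cDC1 marker as well, at 1.05, and Oasl1, at 1.21. The median ratio of this list in the Xcr1 cells was below 0 against each class, at -1.07, -0.69 and -1.17. Of its genes, 15 of 28, 11 of 25 and 15 of 28 were lower, beside 19.7%, 18.9% and 22.4% of all genes. The summed level of the list did not follow the median in each case: it was 2563 CPM in the Xcr1 set, against 3024 in Plet1/Ccl17 cells, 2412 in Ccr7/Fscn1 cells and 3757 in C1q macrophages.

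Costimulatory and inhibitory genes did not move as a group. Of 21 measured, 2 were higher and 2 lower in the members than in Plet1/Ccl17 cells, beside 3.2% and 9.39% of all genes. Against Ccr7/Fscn1 cells 5 were higher and 7 lower, beside 10.1% and 12.4%. Against C1q macrophages 4 were higher and 2 lower, beside 7.19% and 10.3%. Btla was higher than in all 3, by 2.36, 1.01 and 7.57. Cd86, a ligand of Cd28, lay at 227 CPM in the members, against 212, 226 and 203. Cd274, which encodes PD-L1, stood at 122 CPM in the members, against 122, 221 and 167. Cd40, through which helper T cells license dendritic cells, stood at 38.0 CPM, against 30.4, 70.7 and 31.2.

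**Figure D5:**
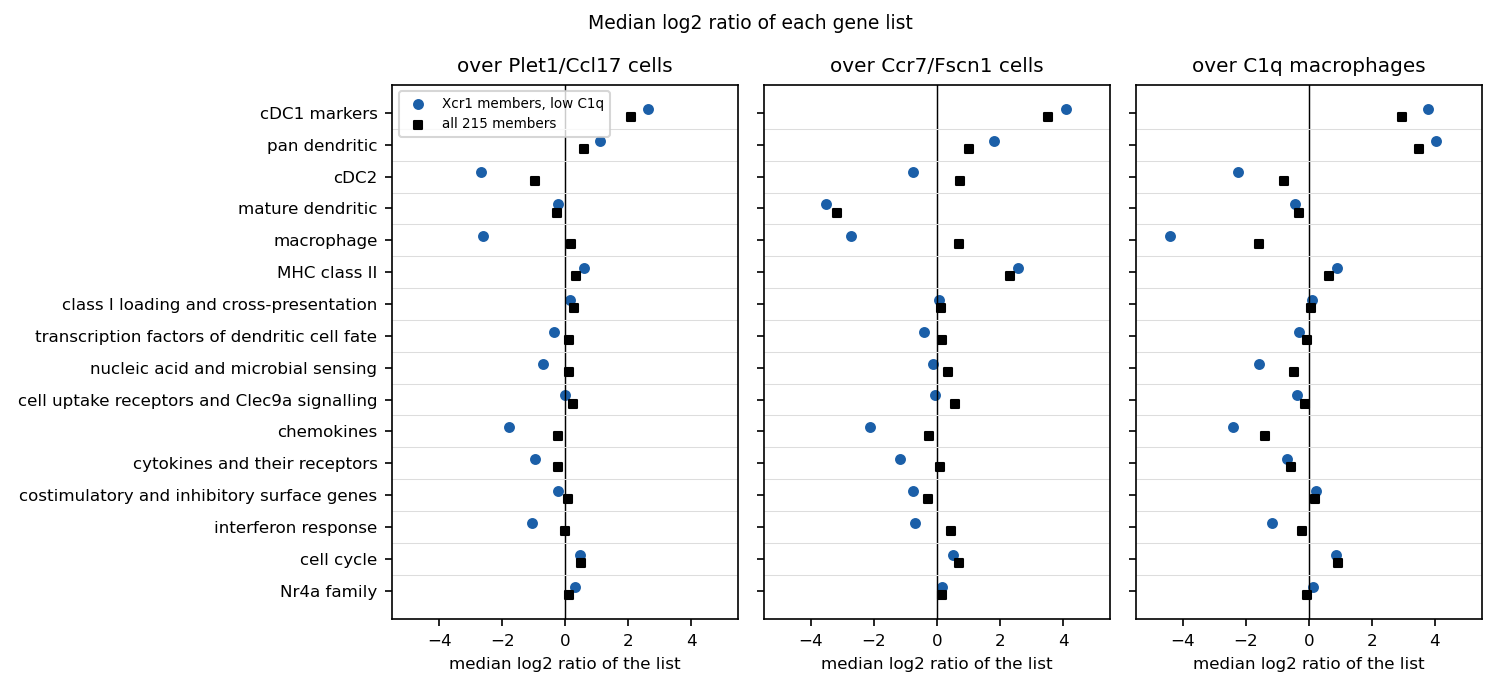
Median log2 ratio of each gene list against Plet1/Ccl17 cells, Ccr7/Fscn1 cells and C1q macrophages, for the 99 Xcr1 members with low C1q (blue circles) and all 215 members (black squares). cDC1 genes have the highest or next highest median in every panel, and the macrophage median of the Xcr1 members lies below that of all members, at -2.61 against 0.17 in the left panel, a list on which the C1q limit that chose the 99 bears.

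Cell cycle genes passed 2-fold in some comparisons. Against C1q macrophages 9 of 22 were higher and 0 lower, with a median of 0.93, beside 7.19% of all genes higher. Against Ccr7/Fscn1 cells 7 of 22 were higher and 0 lower, with a median of 0.71, beside 10.1%. Against Plet1/Ccl17 cells 1 of 22 was higher, near the 3.2% of all genes, and 0 lower, with a median of 0.51. Rrm2, a ribonucleotide reductase subunit, was higher in all 3, by 1.96, 1.76 and 1.20. At least 10 UMIs of these 22 genes were found in 100 of the 215 members, which split into 50 of the 99 Xcr1 cells, 5 of the 28 and 45 of the 88. The share was 28.6% in Plet1/Ccl17 cells, 9.78% in Ccr7/Fscn1 cells and 21.0% in C1q macrophages, whose cells held fewer UMIs. Of 2 genes of dividing cells, Mki67 was found after thinning in 6.98% of the members (3.96% to 11.2%), against 5.85%, 2.20% and 5.57%. Unthinned, the shares were 33.0%, against 22.4%, 9.78% and 19.1%. Top2a was found after thinning in 9.30% of the members (5.78% to 14.0%), against 5.54%, 4.40% and 4.34%. Unthinned, the shares were 28.4%, against 18.7%, 10.9% and 14.0%. The part of depth in the shares with at least 10 UMIs was not tested.

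Within the 99 Xcr1 cells, the 50 with at least 10 cell cycle UMIs had a median of 24206.5 UMIs, against 19980 in the other 49. The limit of 10 was not scaled to depth. Of the 50, 4 were among the highest doublet scores, against 1 of the 49. Irf8 stood at 1291 CPM in the 50 cells and 1573 in the 49, a ratio of -0.29 (-0.39 to -0.18). Flt3 stood at 85.9 and 136 CPM, a ratio of -0.66 (-1.04 to -0.28), and Itgae at 298 and 388 CPM, a ratio of -0.38. Naaa differed by -0.10, with an interval that spanned 0 (-0.22 to 0.02). Ccl22 was higher in the sum of the 50 cells, at 84.4 against 47.1 CPM, a ratio of 0.83 (0.32 to 1.38). These differences were under 2-fold. A Ccl22 UMI was found in only 14 of the 99 cells, with up to 18.5 UMIs per 10000 in a single cell. Apoe lay past 2-fold in the sums, at 288 CPM in the 50 cells and 641 in the 49, a ratio of -1.16 (-1.35 to -0.97). However, 1 of the 49, a cell of 32031 UMIs, held 110 Apoe UMIs per 10000, against a median of 1.32 over the 99 cells. The part of single cells in the Ccl22 and Apoe ratios was not tested, and no difference between the 50 and the 49 is read from them.

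The Nr4a nuclear receptors, among them the Nr4a2 that the series title names, were close to the other classes. Nr4a2 stood at 103 CPM in the members (94.0 to 112), against 79.8 in Plet1/Ccl17 cells, 92.5 in Ccr7/Fscn1 cells and 94.7 in C1q macrophages. Its ratios were 0.36 (0.21 to 0.52), 0.15 (-0.12 to 0.43) and 0.12 (-0.02 to 0.25), and only that against Plet1/Ccl17 cells had an interval away from 0. Among the members it was 102 CPM in the Xcr1 set, 160 in the Clec9a-only set and 91.9 in the C1q-bearing set. A UMI of it remained after thinning in 13% of the members (8.83% to 18.3%), against 16.1%, 17.6% and 15.5% of the 3 classes, 11.9% of T cells and 8.17% of neutrophils. Unthinned, the shares were 59.5% of the members, against 54.3%, 57.6%, 47.4%, 39.0% and 20.9%. The thinned share therefore did not follow the level against Plet1/Ccl17 cells, and no order is read from it. Nr4a1 stood at 88.2 CPM in the members, against 80.7, 77.5 and 91.3. Nr4a3 stood at 68.9 CPM, against 90.0, 160 and 71.7, and its ratio to Ccr7/Fscn1 cells, -1.22 (-1.46 to -0.97), was the only one of the family past 2-fold.

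Transcripts of the ligands of Xcr1 and Flt3 were higher in other cells of the same library. Xcl1 had 0 UMIs in the members, which allows up to 0.734 CPM. It stood at 79.3 CPM in the 1718 T cells, of which 12.9% held a UMI, and at 176 CPM in 81 barcodes with Ncr1 or Klrb1c and without Cd3, of which 32.1% did. Flt3l, the ligand of Flt3, stood at 3.18 CPM in the members, 13.4 in T cells and 21.6 in the Ncr1 or Klrb1c barcodes. Xcl1 was thus detected in T cells and in barcodes with NK genes and not in the members at this depth.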

How the data were processed

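The values are raw counts deposited by the authors, with no scaling: UMIs of each of 31053 genes at each barcode, in 1 matrix per group. Per the submitters' processing notes, Cell Ranger 3.0.2, STAR and Seurat 3 were named with the builds GRCh38 and mm10, without roles. The matrices listed the kit's whole set of barcodes, and the limits of the rule were the only filter on cells. Free RNA was not subtracted. The 4 samples of a group could not be separated. The glioma library held 159689787 UMIs and the control library 124023146. The precision of each value is set by its UMIs, and exact Poisson (levels), binomial (shares) and conditional binomial (ratios) 95% intervals cover counting error only.

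UMIs were summed per class and divided by the class total (Python 3.11.15, numpy 2.4.6, scipy 1.17.1). Doublets were kept; Scrublet in scanpy 1.11.5 marked 0% by its automatic threshold, so the highest scores at 0.8% per 1000 barcodes (961 of 10963) were counted instead. The ratio script was tested on simulated sums. No sequence is shown. Members and gene lists were chosen with earlier results of these data known. Named genes were members of the lists, and per comparison the 10 largest and 10 smallest ratios among genes with at least 50 UMIs in the higher class, leaving out genes that chose the cells and mt-, Gm and Rik names; the same rule was used for the Xcr1 set against the 347 cells. List symbols that matched none in the matrix (Gpr141b, Cxx1a, Amica1, Clec7a, Cxcl11 and Mx2) were not used, although Amica1 and Cxx1a are older symbols of Jaml and Rtl8a, which the matrix holds. How reads of overlapping or near-identical genes were counted is not given in the sources used here. Alternatives covered the UMI minimum, quality limits, doublets, C1q, shared barcodes, Ccr7 and Cd3, per-cell means, thinning, centring, gene minimum and the added UMI.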

Additional observations from a re-analysis of the deposited data

Results flagged for a closer look

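In the control library, 7 barcodes met the rule for Xcr1 and Clec9a, in data outside the comparisons above. Of these, 5 held an Xcr1 UMI, 7 an Irf8 UMI and 3 an Flt3 UMI, 5 had at least 20 C1q UMIs, and the median depth was 22846 UMIs.

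In the glioma library, 48 barcodes had at least 2 UMIs of Xcr1 and Clec9a and were left out for Ccr7. An Xcr1 UMI was present in 31 of them, the median was 4 Ccr7 UMIs, and 4 had at least 2 Fscn1 UMIs.

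Of the glioma barcodes with at least 2 such UMIs, 46 were left out for Cd3, of which 18 also failed the Ccr7 limit. Of the 46, 28 had exactly 1 Cd3 UMI and 28 held Xcr1, with a median of 29616.5 UMIs.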

How the results depend on the processing

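No paired analysis was possible because each group was 1 pooled library. Leaving out a replicate was likewise not possible. The share of members, 1.96%, was 1.24% with at least 3 UMIs of the rule genes, 0.976% with each gene required, 0.502% with under 2 C1q UMIs, 1.16% with under 20, and 0.903% for Xcr1 with under 20. Genes higher and lower than in Plet1/Ccl17 cells, 358 and 1049, became 548 and 1673 with each gene required, 622 and 2180 with under 2 C1q UMIs, 163 and 408 at 100 UMIs per gene, and 1396 and 2533 with no minimum. The number higher was 569, and that lower 2163, for Xcr1 members with under 20 C1q UMIs. The number lower was also 1996 for members with under 20, 1716 with under 20 in every class, 431 after thinning and 368 without keratin-bearing barcodes. Against Ccr7/Fscn1 cells, 975 and 1192 became 526 and 516 after thinning, 491 and 477 at 100 UMIs, and 1568 and 3391 with no minimum; the number higher was 548 with under 2 C1q UMIs and 1565 as a mean over cells. Against C1q macrophages, the 878 higher became 1359 with under 2 C1q UMIs, 467 at 100 UMIs and 3824 with no minimum. The 1253 lower became 1989 with at least 3 rule UMIs, 2240 with each gene required, 2385 with under 2 C1q UMIs, 2564 with under 20 and 2716 for the Xcr1 set. Lyz2 against Ccr7/Fscn1 cells turned to -0.14 with under 20 C1q UMIs and -0.81 for the Xcr1 set, and Krt8 against C1q macrophages to 0.14 with under 2 C1q UMIs. Removing C1q-bearing barcodes takes macrophage transcripts out by construction; the causes of the other changes were not tested. The C1q and keratin alternatives with a limit of 20 were added after the data were seen. With 1 library per group, the spread between mice is unknown, and low genes are limited by depth.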
